A study of Homo sapiens with 2 samples.

Results

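The 10 genes described here encode the best known writers, erasers and readers of N6-methyladenosine (m6A), a methyl mark on adenosines of messenger RNA. They were taken by exact gene symbol from a deposited table of 40205 genes, in which all 10 were found. The members are the writer genes METTL3, METTL14, WTAP and RBM15, the eraser genes ALKBH5 and FTO, and the reader genes YTHDF1, YTHDF2, YTHDF3 and YTHDC1. All 10 had a mean of at least 1 FPKM (fragments scaled to transcript length and to library size), as did 11454 genes of the table.

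RKO is an established line of human colorectal cancer cells, and its RNA was sequenced on day 2 after siRNA transfection. Cells of the first group received a control siRNA and those of the other an siRNA that targets hnRNPK, a protein that binds C-rich RNA and DNA. Each group has 1 library, so there is no replicate check, no test between conditions was possible and no p-value is given. In the labels the genotype given for the hnRNPK library reads like a knockout, but the title and protocol speak of siRNA.

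m6A is placed in the nucleus by a complex around the METTL3 and METTL14 heterodimer, in which METTL3 is the catalytic subunit and METTL14 helps to bind the RNA. WTAP anchors the heterodimer and RBM15 helps to bring the complex to its sites. ALKBH5 and FTO are iron-dependent dioxygenases that remove the methyl group, and FTO also acts on the methylated base next to the cap. Proteins with a YTH domain bind the mark: YTHDF1, YTHDF2 and YTHDF3 in the cytoplasm, where YTHDF2 is best known for speeding the decay of its targets, and YTHDC1 in the nucleus.

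HNRNPK itself was at 338 FPKM with control siRNA and 61.5 FPKM with hnRNPK siRNA, a ratio of 0.182 (0.174 to 0.190). Such intervals are exact 95% counting intervals from the reads that could be worked out from the FPKM values. They leave out variation between cultures and libraries. The smallest library totals that fit were 25729856 reads with control siRNA and 28550823 with hnRNPK siRNA. Of the epithelial and colorectal markers, KRT18, KRT8, EPCAM and CDX2 were measured at 4.47 FPKM or more in both libraries, while KRT19, CDH1 and VIL1 were listed at 0. EPCAM was at 19.0 and 29.1 FPKM. None of 6 blood cell, 6 stromal and endothelial, and 6 neuron and muscle markers reached a mean of 1 FPKM.

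Both eraser genes were lower in the hnRNPK siRNA library, YTHDF2 was higher, and the other readers and WTAP differed little. METTL3, METTL14 and RBM15 were lower by smaller factors, and METTL3 and RBM15 lay near the all-gene median. In RNA from a whole culture, less RNA per cell and fewer cells that hold it cannot be told apart. None of the 10 reached 2-fold in either direction, whereas of the 11454 genes 0.777% were higher and 3.55% lower by that factor or more. At 1.5-fold, YTHDF2 was the 1 member higher and ALKBH5 the 1 member lower, beside 3.67% and 14.7% of all genes. With 142 genes higher and 241 lower after centring on the all-gene median, against 89 and 407 as deposited, the split of all genes rests on the scaling. ALKBH5 was not past 1.5-fold after centring, and YTHDF2 was not with equal totals, by log2 ratios of −0.55 and 0.50. These counts use log2(FPKM + 1), which understates the change of low genes, while printed ratios use FPKM alone. The shares of all genes with a lower ratio, given below, also rank genes by log2(FPKM + 1). The members' median log2(FPKM + 1) ratio was −0.15, the same to 2 decimals as the −0.15 of all genes, and 5 of 10 members lay below the latter. The 10 genes thus did not lie to one side of the other genes as a set.

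**Figure D1:**
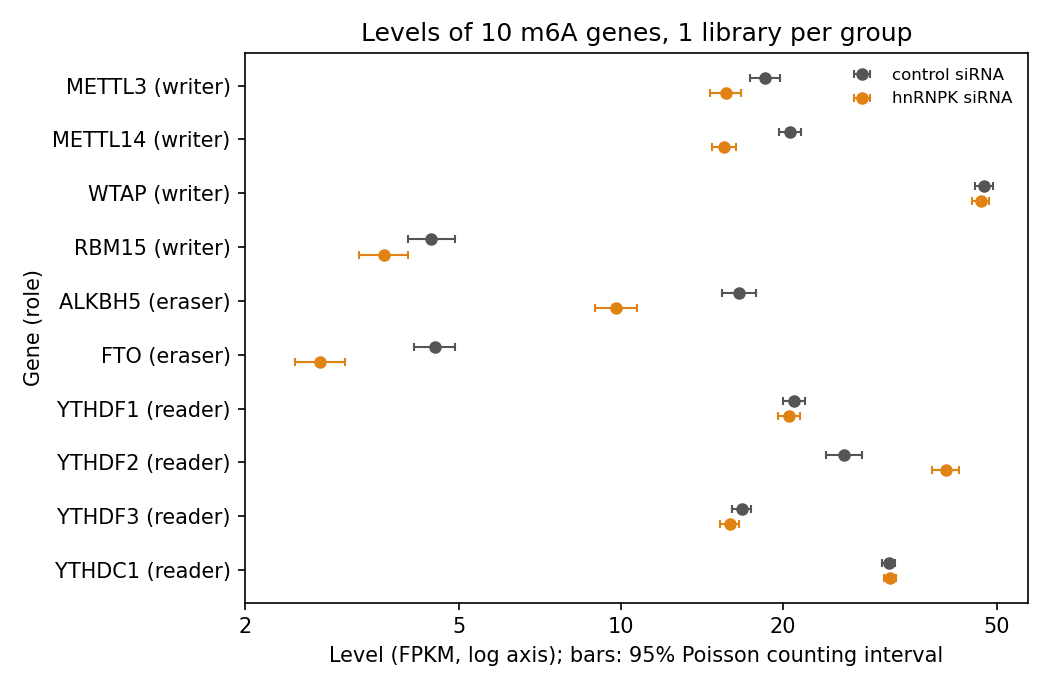
Level of each m6A gene (x axis, FPKM, log scale) in the control siRNA library (grey) and the hnRNPK siRNA library (orange), with 95% Poisson counting intervals and 1 library per group. The intervals of the pairs are apart for ALKBH5, FTO, YTHDF2, METTL14 and METTL3, and overlap for RBM15, WTAP, YTHDF1, YTHDF3 and YTHDC1.

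The eraser genes had the lowest ratios of the 10. ALKBH5 was at 16.6 FPKM (732 reads) with control siRNA and 9.81 FPKM (481 reads) with hnRNPK siRNA. That was 1.69-fold lower, a ratio of 0.592 with a counting interval of 0.527 to 0.665, and 9.997% of all genes had a lower ratio. FTO was at 4.50 FPKM (497 reads) and 2.76 FPKM (338 reads), which was 1.63-fold lower (1.42 to 1.88). Of all genes 16.4% had a log2(FPKM + 1) ratio lower than that of FTO. With 1 FPKM added, the log2 ratios were −0.70 for ALKBH5 and −0.55 for FTO, so that FTO did not pass 1.5-fold on that scale. The level of FTO relative to ALKBH5 was 0.272 in control siRNA and 0.281 in hnRNPK siRNA. That quotient changed by a factor of 1.04 (0.861 to 1.24), an interval that includes 1.

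Low and high genes differed in their typical ratio, so each member was also set beside genes of similar level. Among 2022 genes with a mean of 10 to 20 FPKM, the median log2 ratio was −0.16 and the quartiles were −0.42 and 0.08. ALKBH5 thus lay below the lower quartile, and 14.3% of these genes were at least 1.5-fold lower. METTL3, METTL14 and YTHDF3 fall in the same range of levels and lay between its quartiles. Among 4075 genes with a mean of 1 to 5 FPKM, the quartiles were −0.46 and 0.05, and 17.1% were at least 1.5-fold lower. FTO lay below the lower of these quartiles and RBM15, at −0.23, between them. Among 1747 genes of 20 to 50 FPKM the quartiles were −0.35 and 0.15. YTHDF2, at 0.61, lay above the upper quartile, and 3.84% of these genes were at least 1.5-fold higher. WTAP, YTHDF1 and YTHDC1 lay between those quartiles.

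**Figure D2:**
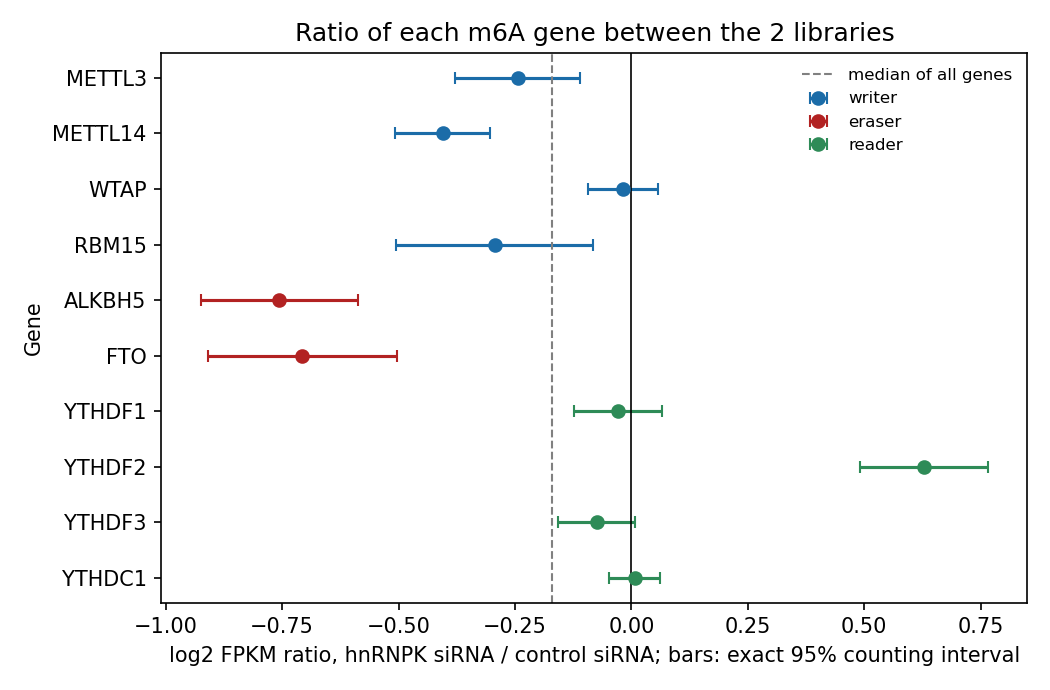
Log2 FPKM ratio of each m6A gene, hnRNPK siRNA over control siRNA, with exact 95% counting intervals (bars); the dashed line is the all-gene median (mean FPKM of 1 or more) and the solid line marks no difference. ALKBH5 and FTO lie to the left at −0.76 and −0.71 and YTHDF2 to the right at 0.63.

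Among the readers, YTHDF2 stood apart from its paralogs. It was at 26.0 FPKM with control siRNA and 40.2 FPKM with hnRNPK siRNA, a ratio of 1.55 (1.40 to 1.70), and 96.6% of all genes had a lower ratio. YTHDF1, which is known for promoting translation of bound mRNAs, was at 21.0 FPKM (1755 reads) and 20.6 FPKM (1909 reads). Its ratio was 0.980 (0.918 to 1.05). YTHDF3, the other cytoplasmic paralog, was at 16.8 FPKM (2293 reads) and 15.9 FPKM (2416 reads), a ratio of 0.9495 (0.896 to 1.01). YTHDC1, the nuclear reader that acts in splicing and RNA export, was at 31.5 FPKM (5068 reads) and 31.7 FPKM (5652 reads). Its ratio was 1.01 (0.967 to 1.04), so the intervals of these 3 readers all include 1 at the deposited scaling.

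The reads worked out for YTHDF2 carry a limit. The smallest that fit are 683 and 1171, with a gene length of 1020 bases, whereas its longest transcript in GENCODE v29 has 2925 bases. The recovered lengths of FTO (4292 against 11766 bases), METTL14 (3242 against 6669) and HNRNPK (1489 against 2942) also fell well short of the longest transcript. For these 4 genes a shorter isoform may have been counted. Alternatively the true reads may be a common multiple, in which case the intervals given are too wide. ALKBH5 (1717 against 2748 bases) and WTAP (2243 against 3656) fell short by less, and a shorter isoform may have been counted there too. Lengths were not compared for genes of the related lists named below, so the same limit may hold there. Of these, TRMT112 was recovered at 165 bases and ALKBH3 at 603 bases. A pseudogene row, YTHDF2P1, was at 0.278 FPKM (15 reads) and 0.685 FPKM (41 reads), a ratio of 2.46 (1.33 to 4.79). Reads shared between the gene and this copy were not tested. YTHDF3-AS1, FTO-IT1, WTAPP1 and YTHDF1P1 were all below 1 FPKM in both libraries.

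Ratios between members within a library do not depend on how the libraries were scaled to each other. They do depend on the gene lengths used, which for METTL14, FTO, YTHDF2, ALKBH5 and WTAP may be those of a shorter isoform. Lengths cancel in the change of a ratio of paired genes between libraries, but not in shares, sums or the order of levels. YTHDF2 made up 40.8% of the summed FPKM of the 3 YTHDF genes in control siRNA and 52.4% in hnRNPK siRNA. The share of YTHDF1 was 32.9% and then 26.8%, and that of YTHDF3 was 26.3% and then 20.8%. YTHDF2 relative to YTHDF1 was 1.24 in control siRNA and 1.96 in hnRNPK siRNA, a change by a factor of 1.58 (1.40 to 1.77). Relative to YTHDF3 it changed by a factor of 1.63 (1.46 to 1.82). YTHDF3 relative to YTHDF1 was 0.8004 and 0.7753, a factor of 0.969 (0.888 to 1.06) that includes 1. YTHDC1 was above YTHDF2 in control siRNA, at 1.21 times its level, and below it in hnRNPK siRNA, at 0.788 times.

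**Figure D3:**
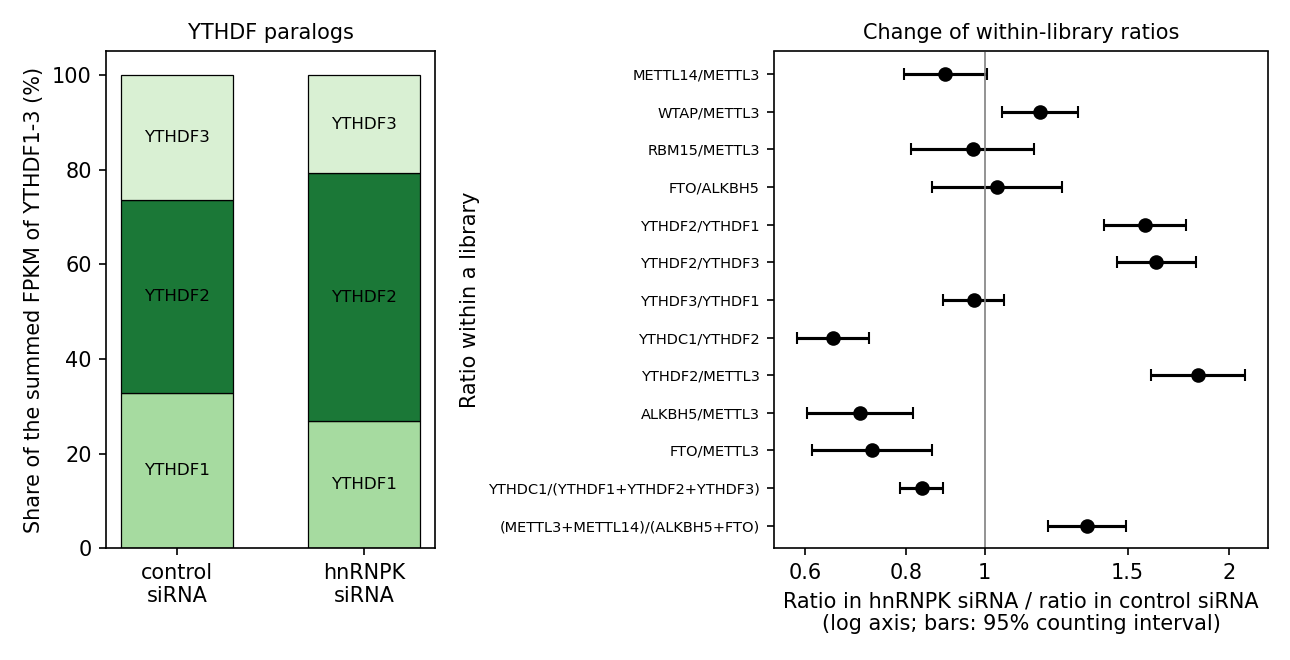
Left, share of YTHDF1, YTHDF2 and YTHDF3 in their summed FPKM (%) in each library. Right, change of 13 within-library ratios, as the ratio in hnRNPK siRNA over that in control siRNA (log axis, bars are 95% counting intervals): those with YTHDF2 as numerator lie between 1.58 and 1.83, and FTO/ALKBH5, YTHDF3/YTHDF1, RBM15/METTL3 and METTL14/METTL3 have intervals that include 1.

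The writer genes differed less than the erasers, and 41.2%, 27.0% and 40.9% of all genes had lower ratios than METTL3, METTL14 and RBM15. Their log2(FPKM + 1) ratios of −0.23, −0.38 and −0.23 became −0.085, −0.24 and −0.088 after centring, so much of the distance of METTL3 and RBM15 from no difference depends on the scaling. METTL3 was at 18.5 FPKM (933 reads) with control siRNA and 15.7 FPKM (874 reads) with hnRNPK siRNA, a ratio of 0.844 (0.769 to 0.927). METTL14 was at 20.6 FPKM (1720 reads) and 15.6 FPKM (1441 reads), a ratio of 0.755 (0.703 to 0.810). The length used for METTL14 may be that of a shorter isoform. By FPKM the heterodimer's subunits were near each other, with METTL14 at 1.11 times METTL3 in control siRNA and 0.994 times in hnRNPK siRNA. The change of that quotient, 0.894 (0.795 to 1.01), has an interval that includes 1. RBM15 was at 4.44 FPKM (392 reads) and 3.62 FPKM (355 reads), a ratio of 0.816 (0.705 to 0.945). WTAP was at 47.4 FPKM and 46.8 FPKM, a ratio of 0.987 (0.937 to 1.04), and relative to METTL3 it went from 2.55 to 2.99, a factor of 1.17 (1.05 to 1.30).

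Set against the writers, the erasers were lower and YTHDF2 was higher. ALKBH5 relative to METTL3 was 0.893 in control siRNA and 0.627 in hnRNPK siRNA, a factor of 0.7015 (0.604 to 0.815). FTO relative to METTL3 changed by a factor of 0.726 (0.613 to 0.860). The sum of METTL3 and METTL14 was 1.86 times the sum of ALKBH5 and FTO in control siRNA and 2.48 times in hnRNPK siRNA, a factor of 1.34 with an approximate interval of 1.20 to 1.49. YTHDF2 relative to METTL3 changed by a factor of 1.83 (1.60 to 2.09).

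In order of FPKM, which rests on the gene lengths used, WTAP was highest in both libraries. In control siRNA it was followed by YTHDC1, YTHDF2, YTHDF1, METTL14, METTL3, YTHDF3, ALKBH5, FTO and RBM15. The counting intervals of neighbours overlapped from YTHDF1 to ALKBH5 and again between FTO and RBM15. In hnRNPK siRNA YTHDF2 stood above YTHDC1, the intervals of YTHDF3, METTL3 and METTL14 overlapped, and FTO was last.

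**Figure D4:**
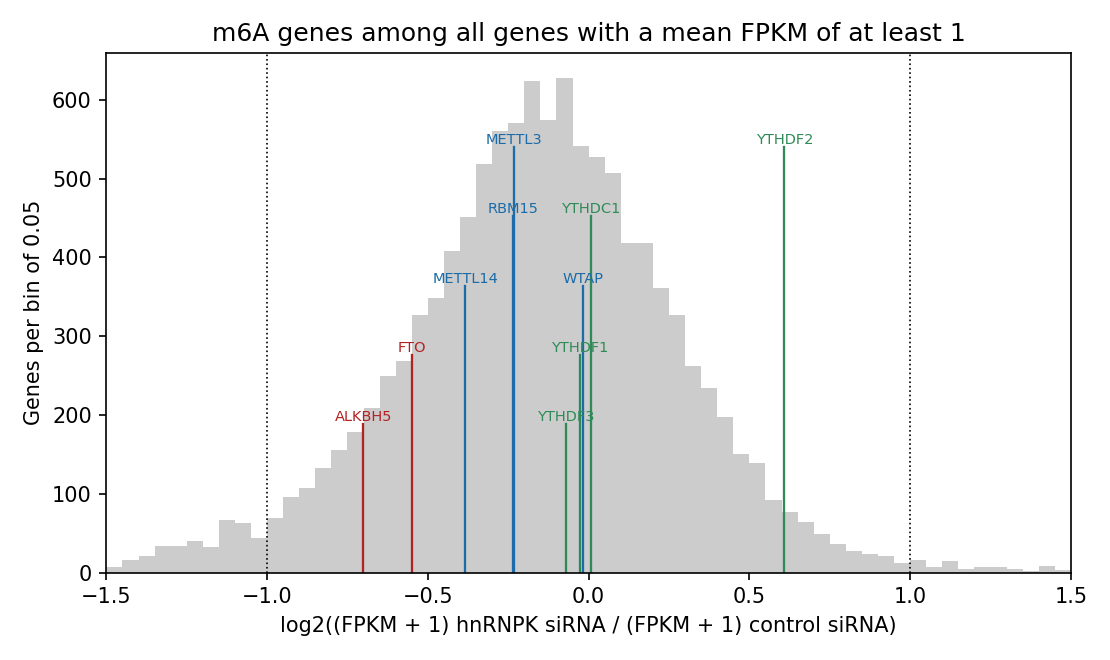
Histogram of log2((FPKM + 1) hnRNPK siRNA / (FPKM + 1) control siRNA) over 11454 genes, in bins of 0.05, with each m6A gene marked (writers blue, erasers red, readers green) and 2-fold shown by dotted lines; 63 genes lie outside the plotted range. All 10 members lie within 2-fold, ALKBH5 and FTO on the lower flank and YTHDF2 on the upper.

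Promoters of the 3 members with the largest ratios in size are shown because hnRNPK is known to bind C-rich elements, such as the CT element upstream of MYC. Sequences of 250 bases before to 50 after the start are from RefSeq. Capitals mark CCCTCCC on either strand (GGGAGGG as printed where it lies on the opposite one).
ALKBH5, chr17:18183578-18183877 (GRCh38.p14, plus strand): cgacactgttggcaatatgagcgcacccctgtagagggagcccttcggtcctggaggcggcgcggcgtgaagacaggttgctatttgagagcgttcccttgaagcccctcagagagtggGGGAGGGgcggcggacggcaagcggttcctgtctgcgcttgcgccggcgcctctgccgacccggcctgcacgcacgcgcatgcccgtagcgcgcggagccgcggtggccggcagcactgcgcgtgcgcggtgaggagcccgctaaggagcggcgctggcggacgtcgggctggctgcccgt
FTO, chr16:53703906-53704205 (GRCh38.p14, plus strand): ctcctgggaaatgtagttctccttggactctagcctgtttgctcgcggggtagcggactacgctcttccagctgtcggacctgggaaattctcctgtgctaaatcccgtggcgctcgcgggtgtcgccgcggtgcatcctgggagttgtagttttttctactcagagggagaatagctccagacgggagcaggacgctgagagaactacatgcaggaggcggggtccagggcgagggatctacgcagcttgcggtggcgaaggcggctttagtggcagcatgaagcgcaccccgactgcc
YTHDF2, chr1:28736374-28736673 (GRCh38.p14, plus strand): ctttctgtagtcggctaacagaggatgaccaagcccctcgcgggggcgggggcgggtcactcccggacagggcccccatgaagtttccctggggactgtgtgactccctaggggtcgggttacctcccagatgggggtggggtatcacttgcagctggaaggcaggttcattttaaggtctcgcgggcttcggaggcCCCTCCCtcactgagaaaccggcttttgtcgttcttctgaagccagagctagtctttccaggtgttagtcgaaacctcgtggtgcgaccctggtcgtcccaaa
YTHDF2, chr1:28736690-28736989 (GRCh38.p14, plus strand): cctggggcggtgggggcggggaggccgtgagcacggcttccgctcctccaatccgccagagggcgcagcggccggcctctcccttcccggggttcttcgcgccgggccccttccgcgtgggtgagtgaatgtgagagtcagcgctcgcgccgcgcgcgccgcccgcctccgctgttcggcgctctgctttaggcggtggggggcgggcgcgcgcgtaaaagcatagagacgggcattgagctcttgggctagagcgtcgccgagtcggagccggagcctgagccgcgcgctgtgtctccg
ALKBH5 and 1 of the start sites of YTHDF2 carried the motif once each, and FTO had no match in its window. Over the members, 3 of 11 promoters of 9 genes had a match, the remaining one being WTAP, beside 26.6% of 35116 promoters in all. Members with a match were lower (ALKBH5), higher (YTHDF2) and near no difference (WTAP). YTHDF3 is not among the 9.

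The 3′ untranslated regions were searched for TCCC, a C-rich tetramer of the kind that hnRNPK's KH domains recognise, on the sense strand with overlaps counted. The longest region of each gene in GENCODE v29 was used, which may not be the form present in RKO cells. The 30-base window richest in C is shown for the same 3 genes, with TCCC in capitals.
ALKBH5: gccccccaggcgtcctccacccacgcccac
FTO: ctgactgccctaccTCCCTCCCttccTCCC
YTHDF2: tctctaatttttaaaccctttcctccTCCC
ALKBH5 had 7 matches in 1558 bases (4.49 per kilobase), FTO 66 in 10026 bases (6.58) and YTHDF2 3 in 823 bases (3.65). The median of 9347 genes searched was 4.19 per kilobase, with quartiles of 2.40 and 7.13, and all 3 genes lay between those quartiles. Over the 10 members the values ran from 0 for METTL3, whose region has only 120 bases, to 6.72 for WTAP, with 1042 bases. So short a region can hold few matches. A match describes the sequence and was not tested as a binding site.

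Among the other subunits of the writer complex, 0 of 4 reached 1.5-fold. Beside this and the list counts below stand the shares of all genes. At 1.5-fold 3.67% were higher and 14.7% lower, and at 2-fold 0.777% were higher and 3.55% lower. KIAA1429 (now VIRMA), the large scaffold subunit, had 16.9 and 17.2 FPKM in control and hnRNPK siRNA and thus a ratio of 1.02 (0.966 to 1.07). ZC3H13, which holds the complex in the nucleus, had 23.4 and 21.4 FPKM, with a ratio of 0.912 (0.877 to 0.949). RBM15B, the paralog of RBM15, was at 10.04 and 7.78 FPKM and CBLL1, an E3 ubiquitin ligase, at 20.3 and 16.5 FPKM. Their ratios were 0.775 (0.722 to 0.831) and 0.812 (0.766 to 0.860), close to the 0.816 of RBM15.

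Of 5 genes for other m6A methyltransferases and their partner, none reached 1.5-fold. METTL16, which methylates U6 snRNA and the MAT2A transcript, had a ratio of 0.976 (0.901 to 1.06). TRMT112, the activating partner of METTL5 on ribosomal RNA, had the highest ratio of these, from 81.0 and 118 FPKM, at 1.45 (1.27 to 1.67).

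Among the other m6A readers and binding proteins, 1 of 12 measured genes was at least 2-fold lower, beside 3.55% of all genes. None was 2-fold higher, beside 0.777% of all genes, and the list median log2 ratio was −0.14. The gene past 2-fold was YTHDC2, an RNA helicase with a YTH domain, at 8.40 FPKM (682 reads) and 3.65 FPKM (329 reads), 2.30-fold lower (2.01 to 2.63). YTHDC2 was the YTH-domain gene with the lowest ratio, while YTHDF2 had the highest. With 1 FPKM added its log2 ratio of −1.01 became −0.87 after centring or trimmed mean scaling and −0.63 with a pseudocount of 5 FPKM, short of 2-fold. IGF2BP1 was listed at 0 in both libraries.

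In the list of CCR4-NOT deadenylase subunits and other decay partners of YTHDF2, 10 of 15 genes had ratios under the all-gene median. The list median was −0.30, beside −0.15 for all genes, and became −0.15 after centring. HRSP12 (now RIDA), which links YTHDF2 to cleavage by RNase P and MRP, was at 118 FPKM (3069 reads) and 43.2 FPKM (1247 reads), 2.73-fold lower (2.56 to 2.92). Of all genes 0.541% had a lower log2(FPKM + 1) ratio. CNOT6, a catalytic deadenylase subunit, was at 13.5 and 8.61 FPKM, 1.57-fold lower (1.47 to 1.68). With 1 FPKM added, CNOT6 was not past 1.5-fold after centring, with trimmed mean scaling or with a pseudocount of 5 FPKM. CNOT1, the scaffold subunit that YTHDF2 binds, was at 28.96 and 23.95 FPKM. On log2(FPKM + 1), 2 of the 15 were at least 1.5-fold lower, beside 14.7% of all genes. None of the 15 was 1.5-fold higher, beside 3.67% of all genes.

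**Figure D5:**
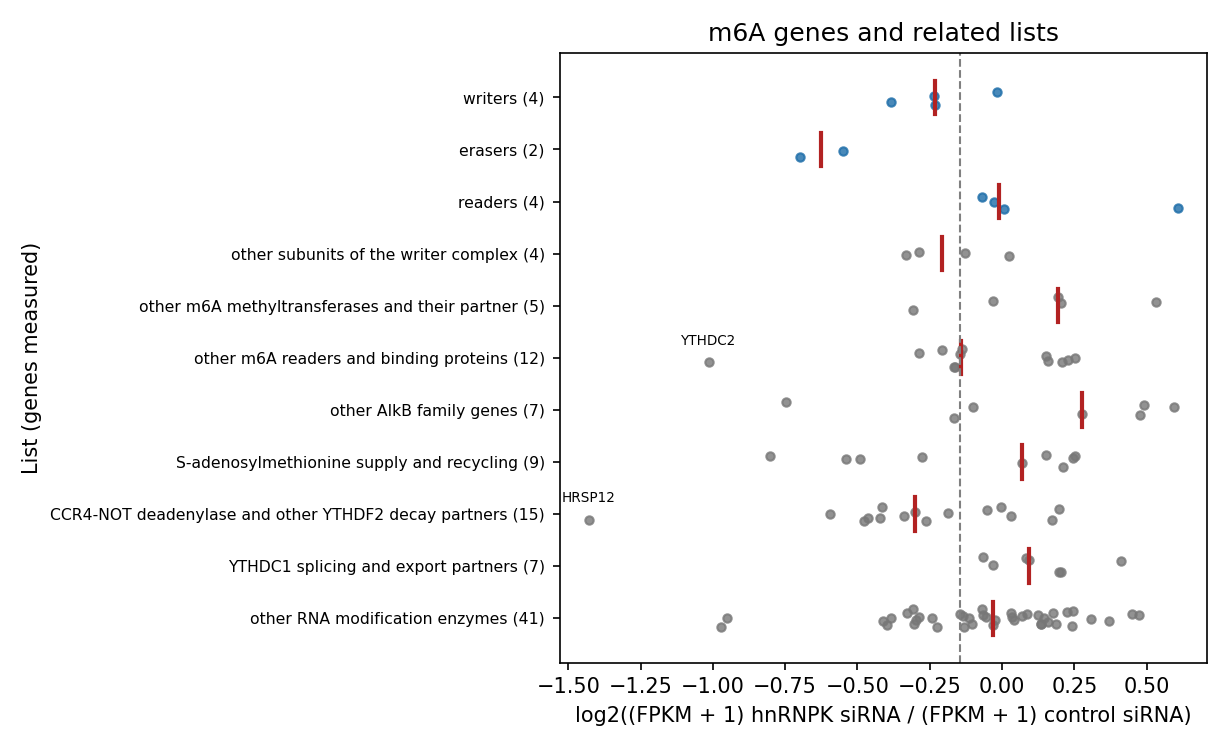
Log2((FPKM + 1) ratio), hnRNPK siRNA over control siRNA, of every measured gene (points) in the 3 member groups (blue) and 8 related lists (grey), with list medians (red bars) and the median of all genes (dashed line). HRSP12 and YTHDC2 are the named genes past 2-fold.

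Among 7 other AlkB family genes, ALKBH3, a repair enzyme for alkylated DNA and RNA, was 1.72-fold lower (1.48 to 2.01), from 27.6 to 16.0 FPKM. ALKBH2, a repair enzyme for alkylated DNA, went the other way at 26.9 and 41.1 FPKM, with a ratio of 1.53 (1.40 to 1.67), and with equal totals or a pseudocount of 5 FPKM it was not past 1.5-fold. The list median was 0.28. Of 9 measured genes of S-adenosylmethionine supply, the methyl donor of all writers, methionine synthase MTR alone reached 1.5-fold on the FPKM + 1 scale, at 9.18 and 4.83 FPKM, 1.90-fold lower (1.78 to 2.03), though not past it with a pseudocount of 5 FPKM. The list median was 0.07.

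Of 7 splicing and export partners of YTHDC1, 6 had a mean of at least 50 FPKM, a range in which the median log2 ratio was 0.13. Set beside the median of genes of similar level, 4 of the 7 lay above and 3 below, with none past 1.5-fold and a list median of 0.09. Of 41 measured enzymes of other RNA modifications, 0 were past 2-fold on the FPKM + 1 scale, and the median was −0.03. With equal totals or a pseudocount of 0.1 FPKM, 2 were past 2-fold lower. The largest differences were those of NSUN6, a tRNA cytosine methyltransferase, at 9.22 and 4.21 FPKM, and TRMT61B, a mitochondrial tRNA adenosine methyltransferase, at 14.3 and 6.93 FPKM. By FPKM alone these were 2.19-fold (1.96 to 2.46) and 2.07-fold (1.82 to 2.35) lower.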

How the data were processed

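The authors deposited 1 table of FPKM values with 1 column per library. Bowtie 0.12.2 and hg19 are named per the submitters' processing notes. How genes were annotated and counted, and whether strand was used, is not given in the sources used here, so reads of overlapping or antisense genes cannot be told apart. The control column was matched by siNC in its title and the hnRNPK column, less directly, by the letters Si and K.

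Reads were worked out from ratios of the columns. Of 16571 genes above 0 in both libraries, 99.8% gave whole reads and a whole length (tolerances 5e-14, relative, and 1e-05 bases). The smallest numbers that fit were used. The procedure was tested on simulated data. Ratios were log2((FPKM + 1)/(FPKM + 1)) for genes whose FPKM averaged 1 or more. Python 3.11.15 and SciPy 1.17.1 were used.

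Named are HNRNPK, the members and rows sharing their symbols, the 4 other writer subunits and, from other lists, measured genes past 1.5-fold, at most 3 per direction. Outside this rule, METTL16, TRMT112, CNOT1, IGF2BP1, AHCYL2 and the markers were named after their values were seen. So were the 3 genes whose sequences are shown. The members and lists were chosen with earlier results of these data known. Of 103 genes in the 8 lists, 4 were matched by an older symbol.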

Additional observations from a re-analysis of the deposited data

How the results depend on the processing

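No paired analysis was possible because each group has 1 library, which also means that none was left out. The ratios within libraries beyond the first 4 pairs and YTHDC1 over the YTHDF sum, and the ranges of level with the list counts based on them, were chosen after the data were seen. Alternatives were pseudocounts (0.1 and 5 FPKM), scalings (centred on the all-gene median, trimmed mean, equal totals without small RNAs), filters (none, and 5 FPKM) and folds (1.5 and 3).

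Members past 2-fold were 0 in each direction under every scaling, pseudocount and filter and at 3-fold, and 1 higher and 1 lower at 1.5-fold. Of members past 1.5-fold, the lower ones were 2 (ALKBH5 and FTO) under the 0.1 FPKM pseudocount and equal totals, and 0 under centring, trimmed mean scaling and the 5 FPKM pseudocount. The higher one, YTHDF2, became 0 under the 5 FPKM pseudocount and equal totals. ALKBH5's log2 ratio ran from −0.80 to −0.54, FTO's from −0.69 to −0.29 and YTHDF2's from 0.50 to 0.76.

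Centring and trimmed mean scaling each shifted all log2 ratios by 0.15. WTAP then turned to 0.13 and YTHDF1 to 0.12 under either, and YTHDF3 to 0.076 under both. YTHDC1 turned to −0.10 under equal totals, so these 4 genes have no settled direction. The members' median was −0.0044 centred, −0.0038 under trimmed mean scaling and −0.049 under the 5 FPKM filter. That filter drops RBM15 and FTO, both under the all-gene median in the main setting, and of the members kept 3 were under it. With no filter, 6 members were under the all-gene median. The list medians of other m6A readers (0.0046 and 0.0052) and other modification enzymes (0.11) turned under centring and trimmed mean scaling, and those of S-adenosylmethionine supply (−0.031) and YTHDC1 partners (−0.014) under equal totals.

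HNRNPK's log2 ratio, −2.44 as reported, was −2.37 under the 5 FPKM pseudocount, −2.29 centred or trimmed and −2.55 under equal totals. Genes past 2-fold numbered 89 higher and 407 lower. Under the 0.1 FPKM pseudocount there were 162 and 754, under the 5 FPKM one 24 and 85, centred 142 and 241, trimmed 143 and 239, under equal totals 68 and 540, and under the 5 FPKM filter 50 and 258. Folds of 1.5 and 3 gave 420 and 1682, and 10 and 39. The cause was not tested.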
